A study of Mus musculus with 4 samples.

Results

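Runx1, Gata2, Gfi1, Mecom, Meis1, Hhex, Lyl1, Kit and Cd34 are 9 genes of blood stem and progenitor cells, taken by name from a list, out of 21951 protein-coding genes in the annotation used (GENCODE vM21 on the mouse genome build GRCm38, also called mm10). They were followed in 4 libraries of precision nuclear run-on sequencing (PRO-seq), a method that extends the RNA of engaged polymerases in isolated chromatin and so maps transcription in progress. Both tissues, liver and yolk sac, were dissected at E14.5 (mid gestation), and each tissue has 2 libraries, each from tissue of 6 embryos. All embryos had C57BL/6J mothers and fathers of a mixed C57BL/6J and CAST/EiJ background, chosen for CAST/EiJ alleles at the imprinted Dlk1/Gtl2 region of chromosome 12. This background was shared by liver and yolk sac, and no unmixed strain was analysed here.

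The labels do not say whether the libraries of a tissue came from separate litters, so a p-value measures only the spread between these libraries. What was deposited for each library is a list of dREG peaks, intervals that a classifier scores as sites of transcription initiation, at gene starts or away from them. The score of a peak is the authors' own, has no unit, and was used only to rank peaks within a list: the percentile of a peak is the share of peaks in its list that score no higher. Ranks come from lists of different lengths and show no change in activity by themselves.

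Blood stem and progenitor cells are held in their state by a set of transcription factors that bind many of the same enhancers and regulate each other's genes. The fetal liver is the main site where these cells multiply in mid gestation, while the yolk sac makes the earliest blood cells and remains rich in vessels, macrophages and endoderm. Several of the 9 genes are also used outside blood: Runx1, Gata2, Mecom, Hhex, Lyl1 and Cd34 in endothelium, Meis1 in many mesodermal tissues, Hhex in hepatoblasts, and Kit in mast cells and germ cells. Runx1 is transcribed from a distal start, P1, and a proximal start, P2, and P1 is the start used more in definitive blood cells.

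The liver lists held 24863 and 24333 peaks, and the yolk sac lists 50525 and 43055. The lowest score was 0.80 in each list, and the number of reads behind a list is unknown. Several comparisons that could follow list length were repeated in equal-length lists. For these, each list was reduced to its 24333 top-scoring peaks, the length of the shortest list. The counts of cell type markers were made in whole lists only. Of 9 erythroid markers found in the annotation, 9 and 9 had a promoter peak in the liver libraries and 2 and 2 in the yolk sac libraries, and Hbb-bt, Alas2, Klf1, Slc4a1, Epb42, Rhag and Tspo2 had one in both liver libraries alone. Hepatoblast markers had peaks at 8, 7, 7 and 7 of 9 genes (in the order liver replicates 1 and 2, then yolk sac replicates 1 and 2), with Cps1 in both liver libraries alone. Yolk sac endoderm markers had peaks at 6, 5, 8 and 8 of 8 genes, with Cubn and Amn in both yolk sac libraries alone. The same order of libraries is used for every set of 4 values that follows.

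A gene was called in a library where a peak overlapped the 500 bp on either side of any of its annotated starts. By this rule 6 of the 9 genes were called in all 4 libraries (Runx1, Meis1, Hhex, Lyl1, Kit and Cd34), against 53.8% of all protein-coding genes. None was called in both liver libraries alone (1.01% of all protein-coding genes) and none in both yolk sac libraries alone (5.25%). Gata2 and Mecom were called in liver replicate 2 and both yolk sac libraries but not in liver replicate 1, and Gfi1 was called in liver replicate 2 alone. Liver replicate 1 thus lacked a call for each of these 3 genes. Mixed calls of any kind, outside the patterns above and not missing in all 4 libraries, were found for 1257 of the 21951 protein-coding genes. Without liver replicate 1, 8 of the 9 genes were called in every remaining library and Gfi1 in liver alone; without liver replicate 2, Gata2 and Mecom counted as called in yolk sac alone. In these bulk tissues, fewer cells of a type and less transcription per cell cannot be told apart.

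The 9 genes have 53 annotated starts, which form 29 groups when starts within 1000 bp of each other are joined. Of the 29 groups, 9 (31%) were called in all 4 libraries, against 26.5% of the groups of all protein-coding genes, and 7 distinct peaks lay behind them because neighbouring groups of Runx1 and of Hhex shared a peak. A Gata2 group was called in both yolk sac libraries alone, where 4.93% of all groups were, and 14 of the 29 were called in no library, beside 62% of all groups.

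**Figure D1:**
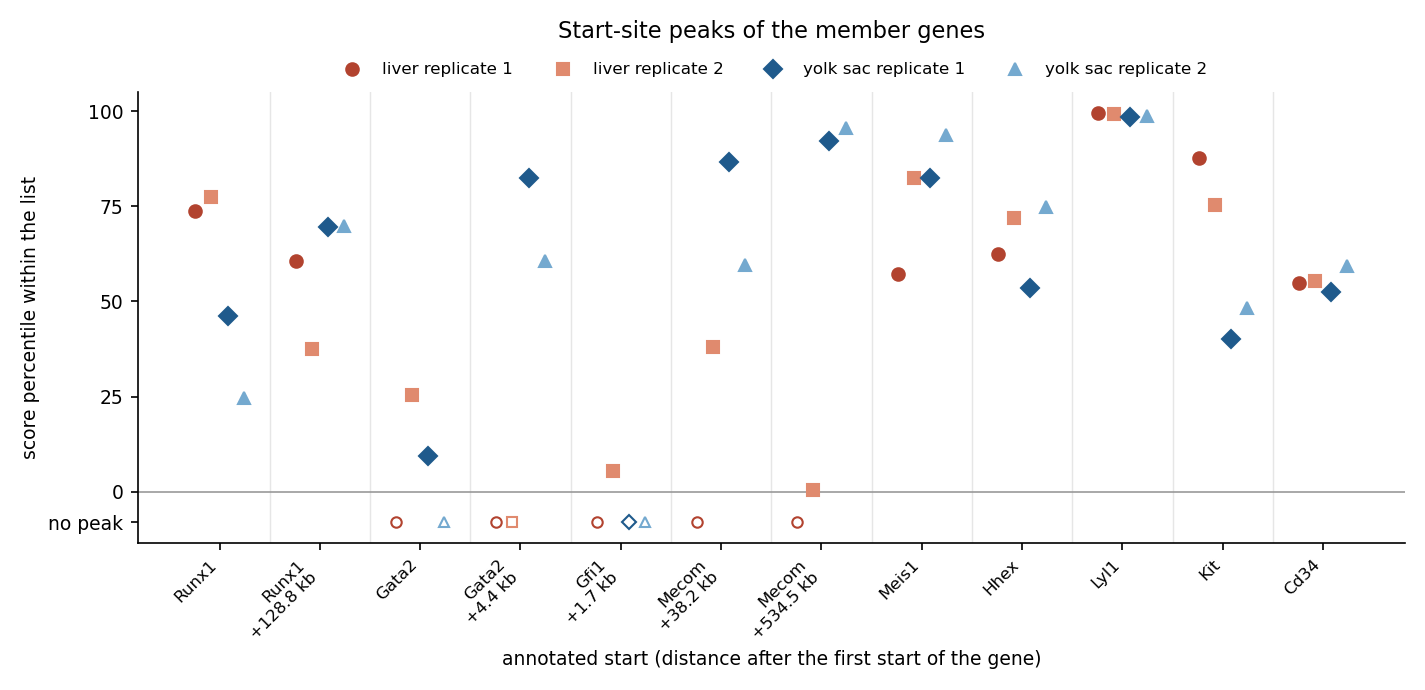
Score percentile within its own list (vertical axis) of the highest-scoring peak at start groups with a call, for the 2 liver and 2 yolk sac libraries. Called groups of Runx1, Hhex and Mecom that share a peak with a plotted group are left out. Open symbols mark no peak within 500 bp. The distal start of Runx1 ranked higher in liver (73.8 and 77.5) than in yolk sac (46.1 and 24.6), its proximal start ranked the other way, and Lyl1 ranked above 98 in all 4 libraries.

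Runx1, the DNA-binding subunit of core-binding factor and a gene needed for definitive blood, lies at chr16:92601466-92826149 on the minus strand. Its starts carry different sequence. The bases just upstream of each are shown because the ranks of these starts ran in opposite directions between the tissues; they are from RefSeq (GRCm38.p6), on the minus strand, with each CpG in capitals. The distal stretch is the 175 bases before the first base of the gene in the annotation (chr16:92826150-92826324), and the proximal stretch is the 250 bases before the RefSeq start (chr16:92697330-92697579).
Runx1 distal start: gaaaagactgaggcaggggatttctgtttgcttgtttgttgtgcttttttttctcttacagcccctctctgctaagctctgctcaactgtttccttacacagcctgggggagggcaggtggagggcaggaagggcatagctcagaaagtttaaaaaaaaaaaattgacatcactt
Runx1 proximal start: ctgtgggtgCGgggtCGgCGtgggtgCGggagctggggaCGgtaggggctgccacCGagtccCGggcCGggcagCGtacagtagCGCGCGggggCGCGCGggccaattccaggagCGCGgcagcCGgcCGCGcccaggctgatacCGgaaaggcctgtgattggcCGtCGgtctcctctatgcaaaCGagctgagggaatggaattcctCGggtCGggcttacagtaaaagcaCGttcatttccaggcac
The 250 bases before the distal RefSeq start had 2 CpGs and 45.6% G or C, while those before the proximal start had 27 CpGs and 67.6% G or C. Over 32851 RefSeq promoters of the same length the median was 6 CpGs and 52.4% G or C, with 29% of promoters at 2 CpGs or fewer and 8.56% at 27 or more.

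At the distal start of Runx1, the liver peaks stood at percentiles 73.8 and 77.5 and those of yolk sac at 46.1 and 24.6. Both liver libraries ranked it above both yolk sac libraries, with a mean of 75.6 ± 2.57 for liver against 35.4 ± 15.2 for yolk sac (SD, n = 2; p = 0.333 by an exact two-sided permutation test, the smallest that 2 libraries against 2 can give). The peak was also wider in liver, at 2352 and 2202 bp against 1752 and 1552 bp. It reached from 92824451 to 92826802 in liver replicate 1 and from 92825351 to 92826902 in yolk sac replicate 2, so that the edge inside the gene moved more than the edge outside it.

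At the proximal start of Runx1, 128.8 kb into the gene, the percentiles were 60.5, 37.4, 69.5 and 69.8. Here both yolk sac libraries ranked above both liver libraries, with means of 69.6 ± 0.212 against 49.0 ± 16.3 (SD, n = 2; p = 0.333 by the exact permutation test). The widths of 3302, 2252, 3202 and 2652 bp overlapped between the tissues. Among the 679 protein-coding genes with at least 2 start groups called in all 4 libraries by separate peaks, 121 (17.8%) had starts in opposite order between the tissues, and Runx1 was 1 of them. That count was made after the values of Runx1 had been seen. In equal-length lists the distal start was called in both liver libraries alone, at percentiles 73.3 and 77.5, as 2.51% of all start groups were. The proximal start was then called in all 4, at 59.6, 37.4, 36.6 and 46.5, and the tissues overlapped.

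Distal regions were defined as merged peaks of the 4 lists more than 500 bp from every annotated start of any gene, and each was assigned by its midpoint to a gene and the 100 kb on either side. Where distal peaks of a library are counted, each peak was judged by its own position, whatever region it merged into. Around Runx1 there were 20 distal regions, more than around any other of the 9 genes. Of these, 4 were called in both liver libraries alone, 9 in both yolk sac libraries alone, 7 in other combinations and 0 in all 4 libraries. The window grows with the gene, and the counts were not scaled by its length. Runx1 spans 224.7 kb, while Lyl1 spans 3.26 kb and had 11 distal regions, and Mecom spans 596.7 kb and had 7. Yolk-sac-only regions made up 45% of the 20 and liver-only regions 20%, against 40.3% and 8.01% of the distal regions of the series. Upstream of the distal start lay 3 of the 20 regions, 1 liver-only and 2 yolk-sac-only. Between the distal and the proximal start lay 7 regions, of which 3 were liver-only and 0 yolk-sac-only, and the 4 libraries called 5, 4, 3 and 0 of them. Beyond the proximal start lay 10 regions, of which 0 were liver-only and 7 yolk-sac-only, and the libraries called 0, 0, 10 and 7. These stretches were drawn after the positions had been seen, and no difference between them was tested. Their counts are from whole lists, while in equal-length lists Runx1 had 8, 9, 8 and 6 peaks within 100 kb.

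The highest-ranked liver-only region of Runx1 lay in the intron after the distal start, 61.1 kb downstream of it (chr16:92764651-92765402), at percentiles 96.4 and 95.9. Another stood 58.0 kb upstream of the gene (chr16:92883451-92884752) at 76.7 and 76.2. The other liver-only regions, 7.12 and 110.3 kb after the distal start, had percentiles of 8.73 and 22.8, and of 18.8 and 0.645. So the liver-only regions of Runx1 fell into a high-ranked and a low-ranked pair.

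Among the yolk-sac-only regions of Runx1, the one 141.5 kb after the distal start (chr16:92684001-92685252) stood at 80.2 and 72.6. A region in an exon near the 3′ end of the gene, at 220.3 kb (chr16:92605251-92606352), stood at 84.4 and 68.9, and its neighbour at 216.4 kb at 58.4 and 82.9. Upstream of the gene, regions at 19.7 and 41.8 kb had percentiles of 64.3 and 74.2, and of 56.2 and 34.3. Past the 3′ end, regions at 246.7 and 248.6 kb had percentiles of 77.4 and 35.7, and of 68.2 and 66.0. The yolk-sac-only regions at 181.5 kb (27.6 and 24.0) and at 324.3 kb, inside Clic6 (22.0 and 20.4), ranked lowest.

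**Figure D2:**
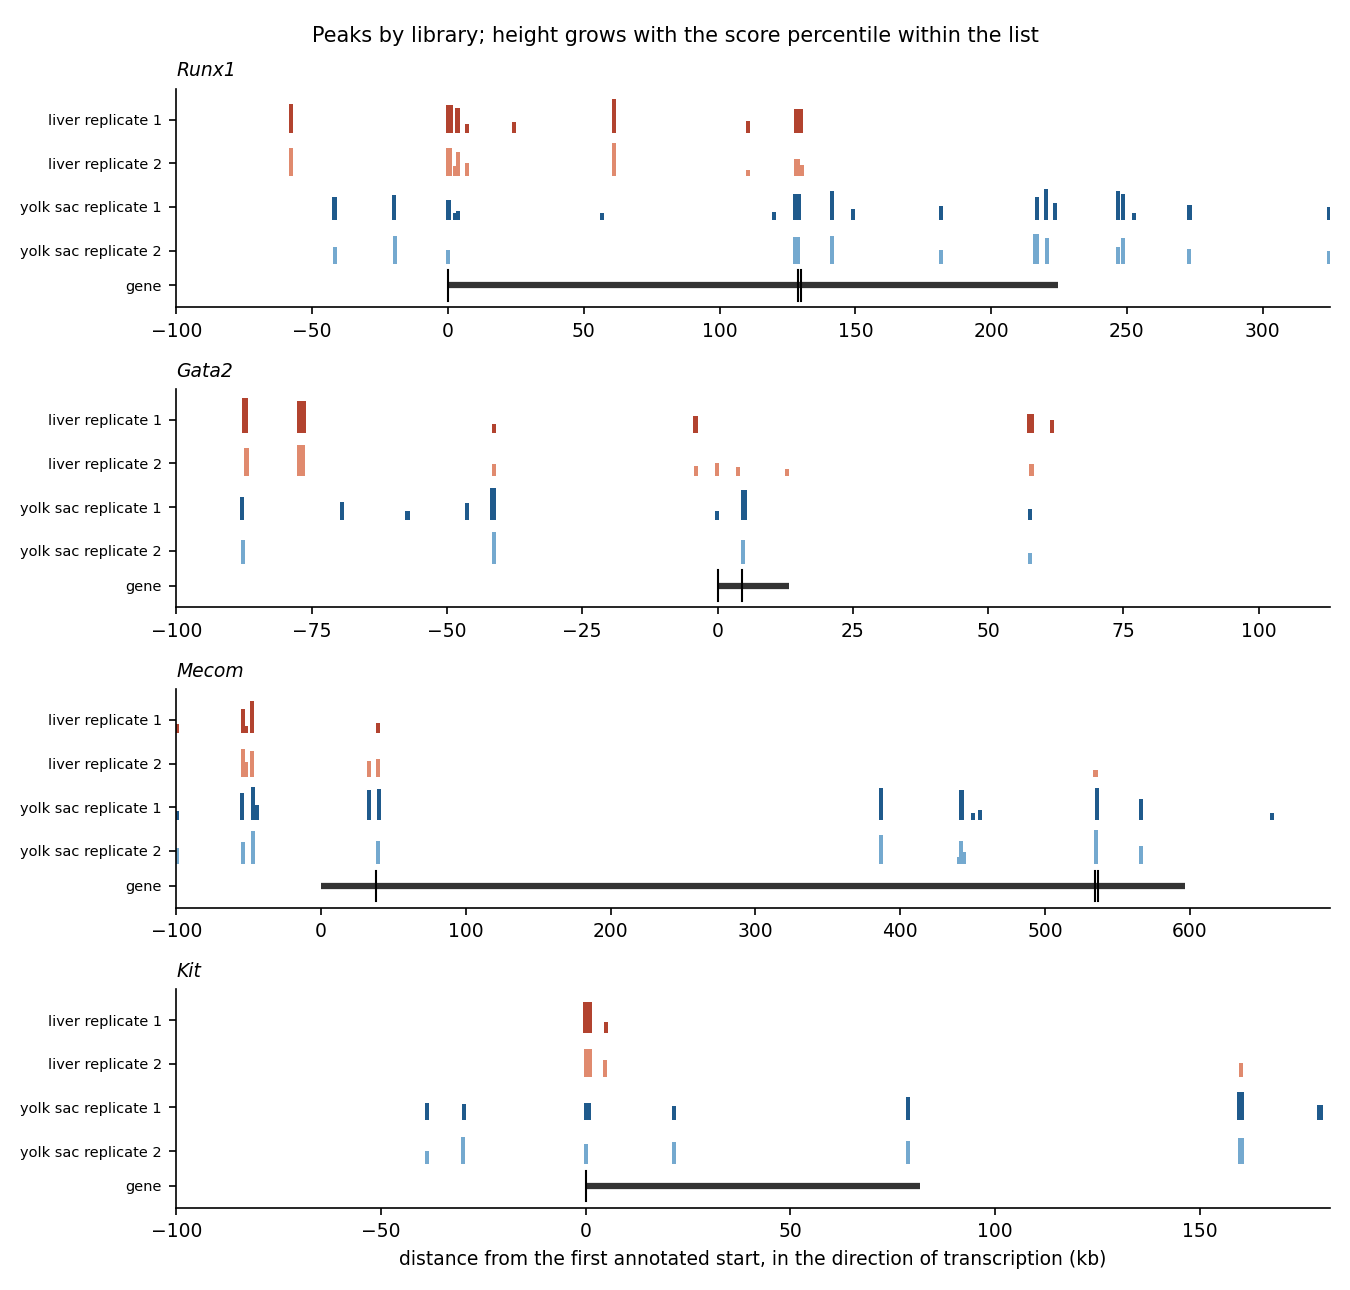
Peaks of each library at Runx1, Gata2, Mecom and Kit, by distance from the first annotated start in the direction of transcription (kb); bar height grows with the score percentile, narrow peaks are drawn wider than scale, the gene is a dark bar, and ticks mark start groups with a call. Beyond the proximal start of Runx1, 10 and 7 distal regions are called in the whole yolk sac lists and 0 in liver, whose lists are shorter. A liver-only region lies 58.0 kb upstream of the gene.

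Gata2 encodes a zinc-finger factor that stem cells need to persist, and lies at chr6:88193891-88207032 on the plus strand. It is transcribed from a distal start, known for use in blood progenitors and neural tissue, and a proximal start used more widely. At the distal start there was a peak of 602 bp at percentile 25.3 in liver replicate 2 and a peak of 102 bp at percentile 9.44 in yolk sac replicate 1, and none in the other libraries. At the proximal start, 4.4 kb downstream, peaks of 1102 and 702 bp stood at percentiles 82.3 and 60.6 in the yolk sac lists, and neither liver library had one. The proximal start was the single start group of the 9 genes called in both libraries of 1 tissue alone, and in equal-length lists it was again called in both yolk sac libraries and no liver library (63.3 and 30.4).

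The 250 bases before the distal start of Gata2 (chr6:88193641-88193890, plus strand, RefSeq, GRCm38.p6) are shown with each CpG in capitals, because this start ranked low or had no peak while its sequence held 22 CpGs.
Gata2 distal start: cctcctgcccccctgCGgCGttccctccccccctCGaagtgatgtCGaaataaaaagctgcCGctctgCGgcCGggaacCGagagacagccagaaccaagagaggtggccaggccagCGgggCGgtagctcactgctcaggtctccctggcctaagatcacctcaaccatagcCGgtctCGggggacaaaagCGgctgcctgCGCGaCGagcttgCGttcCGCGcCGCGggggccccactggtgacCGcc
With 67.2% G or C it lay above the median promoter, as did the proximal start of Runx1, which was called in all 4 libraries.

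Upstream of Gata2 the tissues differed in both directions. A liver-only region 76.9 kb before the distal start (chr6:88116151-88117802) stood at percentiles 89.0 and 88.0 in liver and had no peak in yolk sac. An enhancer of Gata2 active in myeloid progenitors is named for nearly the same distance, and whether the region is that enhancer was not tested; the nearest protein-coding start was that of Rpn1, 15.4 kb away. A region 87.4 kb upstream (chr6:88105701-88107302), 4.93 kb from the start of Rpn1, was called in all 4 libraries at 99.2, 76.8, 57.4 and 60.6. By contrast, the region 41.5 kb upstream (chr6:88151901-88152952), named here after its values were seen, stood at 7.5, 21.3, 89.9 and 89.7. Both liver libraries ranked it low in their lists and both yolk sac libraries near the top.

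Downstream of Gata2, a region 57.8 kb after the distal start, in Dnajb8, was called in all 4 libraries at 44.9, 21, 17.8 and 13.4. A further liver-only region lay 4.07 kb upstream of Gata2 (chr6:88189451-88190202), at 37.5 and 14.8, but it touched the start of the predicted gene Gm38708 and was not counted as distal. Within 100 kb of Gata2 the lists held 6, 8, 8 and 4 peaks, and 6, 8, 3 and 3 in equal-length lists.

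Mecom encodes a zinc-finger factor of long-term stem cells, with a long form made from upstream starts and the shorter EVI1 form from internal ones, and spans chr3:29951296-30548008 on the minus strand. At the upstream start 38.2 kb after the first annotated one, peaks of 902, 2052 and 1652 bp stood at percentiles 38.0, 86.8 and 59.5 in liver replicate 2 and yolk sac replicates 1 and 2. Liver replicate 1 had a peak in the same merged region at percentile 12.3, outside the window of 500 bp. With a window of 1000 bp Mecom was called in all 4 libraries, which made 7 of the 9 genes. At the internal start, 534.5 kb after the first, peaks of 2852 and 1602 bp stood at 92.2 and 95.5 in yolk sac. Liver replicate 2 had a peak of 102 bp there at percentile 0.518, and liver replicate 1 had none. The internal start of Mecom was thus among the highest-ranked starts of the 9 genes in yolk sac and at the bottom of the list or missing in liver; the start of the gene Mecomos shares this region, and the lists cannot assign a peak between them.

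Inside Mecom, 2 yolk-sac-only distal regions lay 442.4 kb (chr3:30103851-30107302) and 566.2 kb after the first start, at percentiles 84.6 and 58.5 and at 50.6 and 39.9. A further region at 386.7 kb, at the start of Gm38066, was called in both yolk sac libraries alone at 91.5 and 77.7 and was not distal. There was no liver-only distal region around Mecom, and 1 liver-only region at the start of Actrt3, 51.8 kb upstream. Distal peaks, each judged by its own position, numbered 1, 1, 6 and 4 in the 4 libraries. That of liver replicate 1 lay in the merged region of the upstream start, which was not a distal region.

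Gfi1, a zinc-finger repressor that limits stem-cell division, lies at chr5:107716657-107726036 on the minus strand and had the fewest peaks of the 9 genes. Its only start call was a peak of 202 bp in liver replicate 2 at percentile 5.33, which also lay near the start of A430072P03Rik. Within 100 kb of Gfi1 the lists held 1, 2, 2 and 1 peaks. All 4 libraries called a region 37.8 kb downstream of the first start (chr5:107687601-107688952), at the starts of Gm26692 and 5830411K02Rik, with percentiles of 51.1, 42.1, 95.4 and 85.5. No replicated peak was found at a Gfi1 start in either tissue, and with depth unknown this does not show that the gene was silent.

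Meis1 encodes a homeodomain cofactor of Hox proteins and lies at chr11:18879817-19018985 on the minus strand. Its peak stood at percentiles 57.2, 82.5, 82.4 and 93.8, and the tissues overlapped. The peak was wider in yolk sac, at 3202 and 2952 bp against 2552 and 2452 bp. A distal region 8.07 kb upstream (chr11:19026151-19027952) was called in all 4 libraries at 55.1, 94.0, 96.5 and 94.6, so liver replicate 1 ranked both the start and this region lowest. A region 141.5 kb after the first start was also called in all 4, at 50.1, 32.6, 50.7 and 47.7. The single yolk-sac-only region of Meis1 lay 61.3 kb into the gene (chr11:18957101-18958202) at 91.0 and 46.3, and none was liver-only.

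Hhex, a homeodomain repressor used in early blood, endothelium and liver buds, lies at chr19:37434810-37440731 on the plus strand. Its start had percentiles of 62.6, 72.0, 53.5 and 74.8 and widths of 3352, 2752, 2852 and 2552 bp, and both overlapped between the tissues. The start of Gm38345 shares the peak. In equal-length lists the order changed to 61.7, 72.0, 3.44 and 55.4, with both liver libraries above both yolk sac libraries. The liver-only region of Hhex lay 88.8 kb downstream (chr19:37523301-37523952) at 19.1 and 45.6, with the nearest coding start that of Exoc6 at 26.8 kb. Yolk-sac-only regions lay 47.2 kb downstream (chr19:37481501-37482552) at 90.8 and 30.4, and 64.3 kb upstream, nearest to Kif11, at 20.9 and 46.9. A region 60.9 kb downstream was called in all 4 libraries at 24.8, 57.6, 54.2 and 52.6.

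Lyl1 encodes a basic helix-loop-helix factor that overlaps in function with Tal1, and lies at chr8:84701457-84704715 on the plus strand. Its start was the highest ranked of the 9 genes in every library, at percentiles 99.6, 99.3, 98.4 and 98.6. The peak was 3452 and 3752 bp wide in liver and 1352 and 1152 bp in yolk sac, with means of 3602 ± 212 and 1252 ± 141 bp (SD, n = 2; p = 0.333 by the exact permutation test). The ranks were nearly equal, while the liver peak was the wider in each pairing of a liver with a yolk sac library. The 250 bases upstream (chr8:84701207-84701456, plus strand, RefSeq, GRCm38.p6) are shown because this start ranked highest; capitals mark the letters CCGGAA, the core bound by ETS-family factors, on either strand.
Lyl1 start: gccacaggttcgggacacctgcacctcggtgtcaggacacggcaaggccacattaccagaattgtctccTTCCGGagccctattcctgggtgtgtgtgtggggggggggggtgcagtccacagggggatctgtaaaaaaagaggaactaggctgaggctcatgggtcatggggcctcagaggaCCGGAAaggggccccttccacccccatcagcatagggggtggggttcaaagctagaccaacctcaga
The matches lay 67 to 62 bases before the start on the plus strand and 181 to 176 bases before it on the minus strand.

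Around Lyl1 all 4 lists held 14 peaks, and at equal length 13, 14, 8 and 11. A liver-only region lay 29.4 kb downstream inside Nfix (chr8:84729551-84732102) at percentiles 96.0 and 98.8, with G430095P16Rik, 7.82 kb away, as the nearest protein-coding start. Yolk-sac-only regions lay 65.2 kb upstream inside Cacna1a, at 87.9 and 76.5, and 58.7 kb upstream, at 62.6 and 65.0. Regions called in all 4 libraries lay 45 kb upstream, at 68.2, 83.8, 55.9 and 55.0, and 50.9 kb upstream, at 39.5, 43.8, 76.5 and 91.2. This neighbourhood is dense in other genes, and the lists do not tie a distal region to Lyl1.

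Kit, the receptor for stem cell factor, lies at chr5:75574916-75656722 on the plus strand. Its start had percentiles of 87.8 and 75.4 in liver and 40.2 and 48.3 in yolk sac, with means of 81.6 ± 8.73 and 44.3 ± 5.74 (SD, n = 2; p = 0.333 by the exact permutation test). The peak was wider in liver as well, at 2052 and 1902 bp against 1502 and 752 bp. In equal-length lists Kit kept its call in liver, at 87.5 and 75.4, and in yolk sac replicate 2, at 8.55, and lost it in yolk sac replicate 1. Kit was thus higher and wider in liver in all 4 pairings of a liver with a yolk sac library.

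The distal peaks of Kit numbered 1, 1, 5 and 4 per library in whole lists. More peaks within 100 kb in both yolk sac libraries were found for 66.8% of protein-coding genes with a peak there. In equal-length lists the peaks within 100 kb of Kit numbered 2, 3, 2 and 5, and the tissues overlapped. Its liver-only region lay in the intron 4.84 kb after the start (chr5:75579401-75580102) at 17.1 and 35.7. Yolk-sac-only regions lay 78.8 kb into the gene (chr5:75653151-75654252) at 60.1 and 58.0 and 21.6 kb into it at 27.9 and 54.0. Upstream of Kit, yolk-sac-only regions lay at 29.9 kb (34.7 and 73.8) and 38.8 kb (38.3 and 23.8). Of the 7 mast cell markers, another cell type that uses Kit, none had a promoter peak in any library. The same held for 7514 of the 21951 protein-coding genes, and the part of mast cells in the Kit peaks was not tested.

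Cd34, a sialomucin on the surface of progenitors and endothelium, lies at chr1:194938819-194961279 on the plus strand. Its start had nearly the same percentile in every library, at 54.8, 55.4, 52.4 and 59.3. The peak was wider in yolk sac, at 1752 and 1452 bp against 752 and 802 bp in liver, with means of 1602 ± 212 and 777 ± 35.4 bp (SD, n = 2; p = 0.333 by the exact permutation test). In equal-length lists the ranks were 53.8, 55.4, 1.23 and 28.0, so the call in yolk sac replicate 1 came close to being lost.

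Distal peaks around Cd34 numbered 1, 2, 9 and 5. Yolk-sac-only regions lay 8.64, 12.9 and 57.0 kb upstream and 59.7 kb downstream of the start. Their percentiles were 38.3 and 45.8, 40.8 and 18.2, 43.9 and 18.8, and 26 and 10.3, below the middle of their lists throughout. A region 59.1 kb upstream (chr1:194879351-194880152) was called in all 4 libraries, at 3.51 and 8.4 in liver and 84.0 and 47.5 in yolk sac.

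Among the 6 genes called in all 4 libraries, the highest-ranked start peak stood higher in both liver libraries for 3 (Runx1, Lyl1 and Kit), against 22.1% of the 11805 protein-coding genes so called. It stood higher in both yolk sac libraries for 0, against 34.4%, and the libraries overlapped for Meis1, Hhex and Cd34. The value of Runx1 compares its distal start in liver with its proximal start in yolk sac, since these were the higher-ranked starts there. In equal-length lists 4 of 5 genes (Runx1, Hhex, Lyl1 and Cd34) stood higher in liver and 0 in yolk sac, while the shares over all genes were 52.3% and 12.9%. Shortening the yolk sac lists thus moved the ranks toward liver for all genes as well as for these. Leaving out yolk sac replicate 2 gave 5 genes higher in liver, and leaving out yolk sac replicate 1 gave 3 higher in yolk sac. The median percentile of the called genes was 68.2, 72.0, 75.9 and 72.3, beside 67.6, 67.0, 71.6 and 72.0 for all protein-coding genes with a promoter peak.

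By the same peaks, 2 of the 6 genes (Lyl1 and Kit) had a wider peak in both liver libraries, against 20.9% of protein-coding genes called in all 4, and 3 (Runx1, Meis1 and Cd34) had a wider one in both yolk sac libraries, against 34.5%. Runx1 again compares different starts, and its distal start taken alone was wider in liver. The median width at the genes called was 2452, 1902, 2302 and 1527 bp, beside 1652, 1502, 1702 and 1552 bp for all protein-coding genes.

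**Figure D3:**
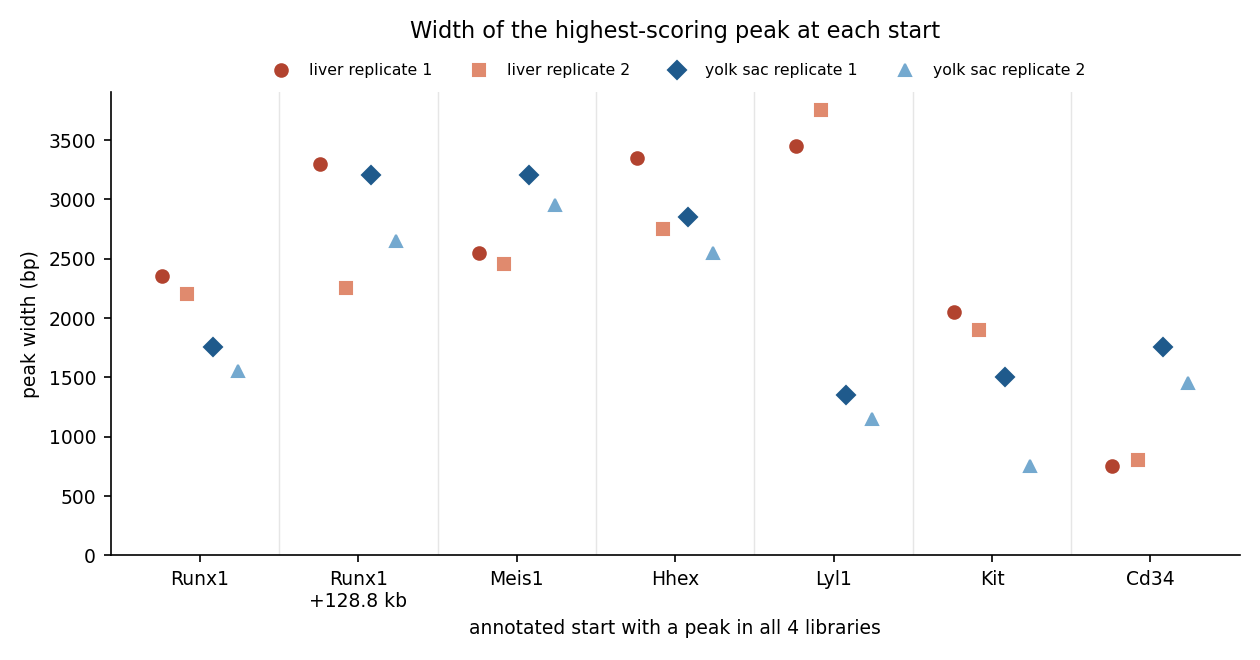
Width in bp of the highest-scoring peak at start groups of the 9 genes with a peak in all 4 libraries, for 2 liver and 2 yolk sac libraries. Neighbouring groups of Runx1 and of Hhex that share a peak are shown once. Lyl1 spans 3452 and 3752 bp in liver against 1352 and 1152 bp in yolk sac, and Cd34 lies the other way, at 752 and 802 bp against 1752 and 1452 bp.

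Within 100 kb of the 9 genes the lists held 48, 54, 92 and 65 peaks in all, with means of 51 ± 4.24 for liver against 78.5 ± 19.1 for yolk sac (SD, n = 2; p = 0.333 by the exact permutation test). This 1.54-fold ratio lay below the 1.90-fold ratio of the list lengths, and the peaks made up 0.193, 0.222, 0.182 and 0.151% of their lists. In equal-length lists the totals were 46, 54, 39 and 44, with means of 50 ± 5.66 and 41.5 ± 3.54 (SD, n = 2), and the direction was reversed. Peaks at the genes' own starts numbered 7, 12, 11 and 10 and did not separate the tissues. Distal peaks numbered 26, 27, 62 and 36, with means of 26.5 ± 0.707 and 49 ± 18.4 (SD, n = 2). These distal peaks made up 0.105, 0.111, 0.123 and 0.0836% of their lists, and the shares overlapped between the tissues.

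Gene by gene, 5 of the 9 (Runx1, Mecom, Meis1, Kit and Cd34) had more peaks within 100 kb in both yolk sac libraries, against 66.8% of the 19014 protein-coding genes with a peak in that window, and 0 had more in both liver libraries, against 5.32%. In equal-length lists 0 had more in yolk sac (19.3%) and 2 more in liver (35.1%), Gata2 and Lyl1. The 5 genes with more peaks in yolk sac thus overlapped between the tissues in equal-length lists. Their mean stayed higher in yolk sac for Mecom (6.5 against 5 for liver) and Kit (3.5 against 2.5). Runx1 had 8, 9, 19 and 12 peaks in whole lists and 8, 9, 8 and 6 in equal-length lists, and Cd34 had 3, 4, 12 and 8, then 3, 4, 3 and 4.

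**Figure D4:**
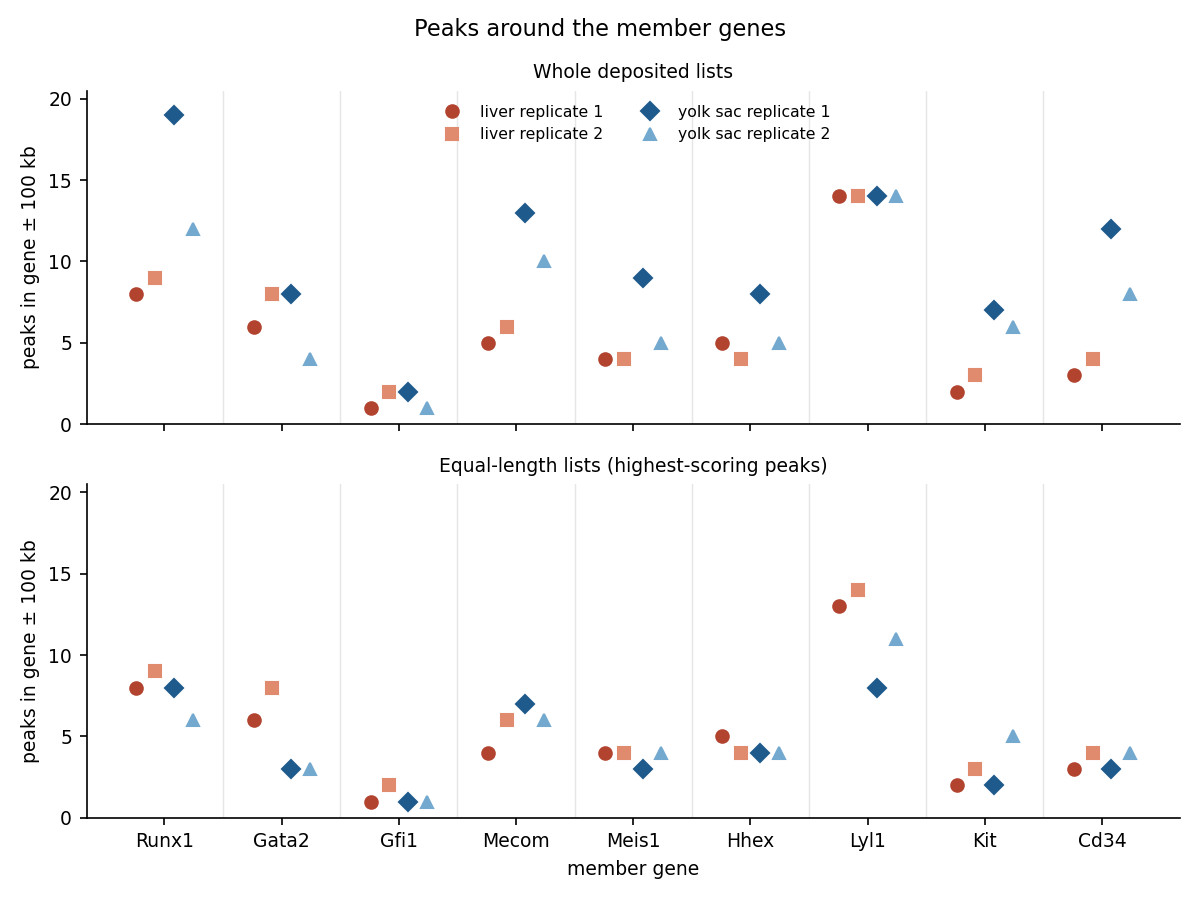
Number of peaks in each gene and 100 kb on either side, in whole lists (top) and in equal-length lists (bottom), with 1 point per library. Runx1, Mecom, Meis1, Kit and Cd34 have more peaks in both yolk sac libraries in the top panel; in the bottom panel no gene does, and Gata2 and Lyl1 have more in both liver libraries.

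The peaks around the 9 genes merged into 116 regions, of which 81 were distal and 31 of these lay in the bodies of the genes. All 4 libraries called 9 of the 81 (against 8.92% of the distal regions of the series), both liver libraries alone called 8, or 9.88% (against 8.01%), and both yolk sac libraries alone called 24, or 29.6% (against 40.3%). A further 37 regions (45.7%, beside 35.6% in the series) were called in a single library, of which yolk sac replicate 1 accounted for 25 and yolk sac replicate 2 for 1. Without yolk sac replicate 2, 49 regions counted as yolk-sac-only; without liver replicate 1 or liver replicate 2, 14 counted as liver-only. In equal-length lists 47 distal regions were left around the 9 genes: 11 were liver-only (23.4%, against 20.7% of the distal regions of the series in such lists), 10 yolk-sac-only (21.3%, against 23.3%) and 7 in all 4 libraries (14.9%, against 9.93%).

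**Figure D5:**
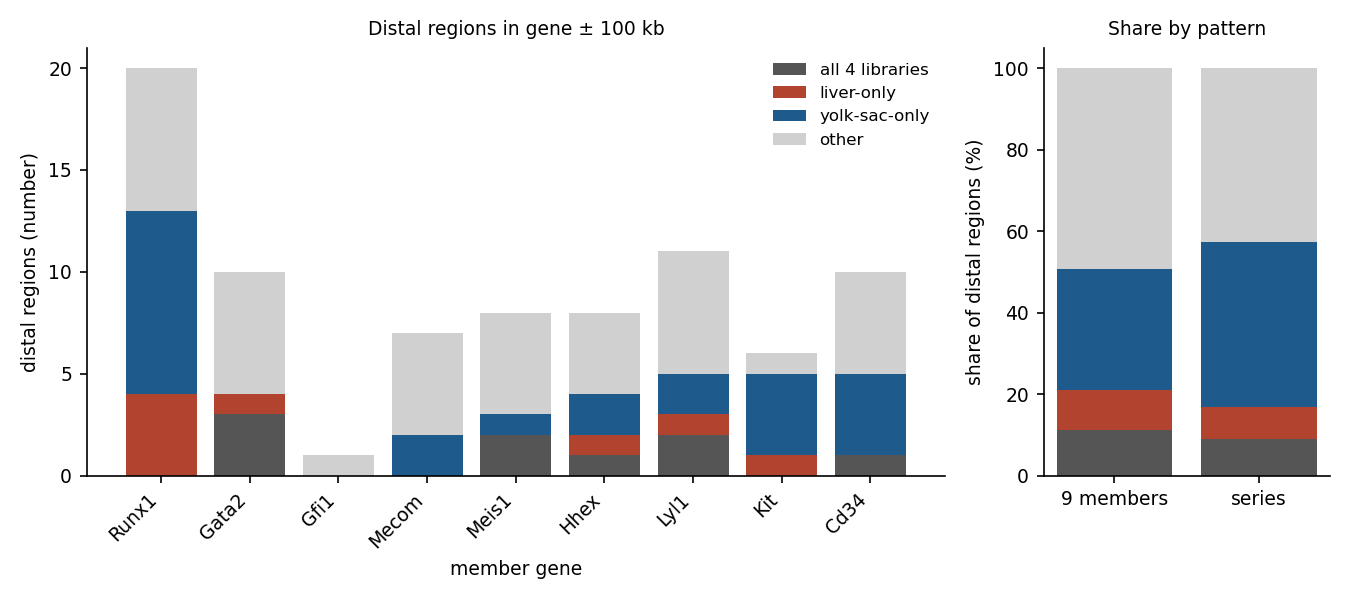
Distal regions within each gene and 100 kb on either side by the libraries that called them (left, number), and the share of each pattern for the 9 genes and for all distal regions of the series (right, %). Runx1 has 20 regions, 4 liver-only and 9 yolk-sac-only; yolk-sac-only regions make up 29.6% for the 9 genes and 40.3% for the series.

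Promoter letters were counted in the 250 bases upstream of 14 RefSeq starts of the 9 genes, of which the 2 starts of Kit overlap almost wholly. The ETS letters CCGGAA, on either strand, occurred at 3 of the 14 (the proximal start of Runx1, Meis1 and Lyl1), beside 12% of all promoters. The RUNX letters TGTGGT occurred at 1, Meis1, beside 14%. The GATA letters AGATAA (9.99% of all promoters), the E-box CAGCTG (13%) and the GATA and E-box composite CANNTGNNNNNNNNGATAA (0.143%) occurred at none. These are matches of letters in short windows and say nothing about binding.

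Beside the 9 genes, 50 other genes of the stem and progenitor programme were listed from general knowledge. Of these, 42, 46, 41 and 42 had a promoter peak in the 4 libraries, and 35 had one in all 4, the calls shown by Runx1, Meis1, Hhex, Lyl1, Kit and Cd34. Called in both liver libraries alone were 5, among them Flt3, a cytokine receptor of lymphoid and myeloid progenitors, at percentiles 11.8 and 65.8. Others were Gata1, the erythroid relative of Gata2, at 42.7 and 48.7, and Gfi1b, the erythroid and megakaryocytic relative of Gfi1, at 71.0 and 57.8. Slamf1, a stem-cell surface protein, was another, at 7.44 and 7.29. None was called in both yolk sac libraries alone. With liver replicate 2 left out, 5 were. Of all protein-coding genes, 53.8% were called in all 4 libraries, 1.01% in both liver libraries alone and 5.25% in both yolk sac libraries alone. The calls of Gata2 and Mecom, missing in liver replicate 1 alone, were shared by Fli1, Gata3, Hmga2, Runx2 and Zbtb16, and those of Gfi1 by none of the 50. Mixed calls of any kind were found for 7 of the 50 and for 1257 of the 21951 protein-coding genes. The share of all genes with exactly the calls of Gata2 and Mecom was not counted. Among the 35 genes called in all 4 libraries, 11 ranked higher in both liver libraries, 13 in both yolk sac libraries and 11 overlapped. The shares over all protein-coding genes so called were 22.1% for liver and 34.4% for yolk sac.

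Markers of other cell types, some of which use these genes, were counted in the same way, in whole lists only. Endothelial markers had promoter peaks at 5, 8, 9 and 9 of 9 genes, with Emcn in both yolk sac libraries alone. Liver replicate 1 had the fewest, as it did over all protein-coding genes (12306, against 12706, 13999 and 13702 in the other libraries). Macrophage markers had peaks at 4, 3, 8 and 7 of 8 genes, with Adgre1, C1qa and Cd163 in yolk sac alone, and mesenchymal and mesothelial markers at 3, 5, 9 and 9 of 9 genes, with Hand1, Wt1, Upk3b and Msln in yolk sac alone. Megakaryocyte markers had peaks at 3, 2, 3 and 3 of 8 genes, with Treml1 in liver alone and Mpig6b in yolk sac alone. The part of these cell types in the values of the 9 genes was not tested.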

How the data were processed

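The authors deposited 1 list of dREG peaks per PRO-seq library, with coordinates and a score per peak. Per the submitters' processing notes, Bowtie2, bedtools and mm10 were used; their versions, the dREG version and the thresholds are not given in the sources used here. The score is the authors' and was not scaled between libraries. Peaks were matched to GENCODE vM21 starts and to RefSeq (GRCm38.p6) promoter sequences in Python 3.11.15 (scipy 1.17.1, pandas 2.3.3, numpy 2.4.6; figures with matplotlib 3.10.9). Regions are peaks of the 4 lists joined where they shared 1 bp or more. The functions were tested on simulated lists. Each tissue has 2 libraries, so an exact two-sided permutation test has 6 assignments and a smallest p of 0.333; counts over genes have no test. The members, the lists of other genes and the marker lists were chosen with earlier results of these data known. Named were all 9 members, genes of the other lists called in 1 tissue alone (1 of them is not reported here), all tissue-only distal regions and, per member, the 2 regions called in all 4 libraries with the highest lowest percentile. As alternatives served equal-length lists, the top-scoring 50% of every list, other windows, flanks, start joining and overlaps, basic transcripts, regions whose nearest coding start is a member's, each library left out, and a replicate block. No depth or read counts were analysed here, so no counting interval is given.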

Additional observations from a re-analysis of the deposited data

How the results depend on the processing

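The depth of the libraries is unknown, the lists differ in length, and 2 libraries per tissue allow no p below 0.333. Of 176 alternative values of the counts and differences over all members or the list of 50, 132 were classed as the same, 43 as moved and 1 as reversed. The class of the same is broad: for the difference in peaks within 100 kb, 27.5 in the main setting, it held values from 14 to 41. In equal-length lists the difference in peaks within 100 kb, yolk sac minus liver, turned from 27.5 to -8.5; members with more peaks went from 5 to 0 in yolk sac and from 0 to 2 in liver, liver-only start groups from 0 to 1, yolk-sac-only distal regions from 24 to 10, and liver-only genes of the list of 50 from 5 to 9. Per gene the same difference turned to -1.5 for Runx1 (from 7), -0.5 for Meis1 (from 3) and -0.5 for Hhex (from 2). It fell but stayed positive for Mecom (1.5, from 6) and Kit (1, from 4), and fell to 0 for Cd34 (from 6.5). For Gata2 it turned from -1 to 1 in the higher-scoring 50% of each list, to 1 without yolk sac replicate 2 and to 3.5 with flanks of 200 kb; without yolk sac replicate 1 it was -3. The cause of these shifts was not tested.

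In the higher-scoring 50%, promoter calls gave 1 liver-only and 2 yolk-sac-only members (from 0 and 0), start groups 2 liver-only, 3 yolk-sac-only and 5 in all 4 libraries (from 0, 1 and 9), and distal regions 5 liver-only, 11 yolk-sac-only and 3 in all 4 libraries (from 8, 24 and 9). The list of 50 gave 3 liver-only, 8 yolk-sac-only and 16 in all 4 (from 5, 0 and 35). With flanks of 50 kb there were 5 distal regions in all 4 libraries and 5 liver-only, and 1 member had more peaks in liver. With flanks of 200 kb there were 19 in all 4, 19 liver-only and 42 yolk-sac-only, and 1 member had more peaks in liver. Counting only regions with a member as the nearest coding start left 4 in all 4 and 5 liver-only. A window of 1000 bp gave 1 member ranked higher in yolk sac (from 0), and joining starts within 500 bp gave 1 liver-only start group.

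Leaving out each library in turn gave 6 to 8 members called in every library left, 0 to 1 called in liver alone and 0 to 2 in yolk sac alone, 3 to 5 ranked higher in liver and 0 to 3 in yolk sac. For start groups called in every library left, in liver alone and in yolk sac alone these ranges were 9 to 11, 0 to 1 and 1 to 3. The difference in peaks ranged from 14 to 41, members with more peaks in liver from 0 to 1 and in yolk sac from 5 to 6. Distal regions numbered 9 to 11 in every library left, 8 to 14 liver-only (14 without liver replicate 1 or liver replicate 2) and 24 to 49 yolk-sac-only (49 without yolk sac replicate 2). For the list of 50 the ranges, in the same order, were 35 to 40, 5 to 6 and 0 to 5. The numbers do not pair the libraries by the labels: deviations of same-numbered libraries correlated at -0.0106 over 11805 genes, and the replicate block gave 1 member ranked higher in yolk sac (from 0) and 6 with more peaks there (from 5).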
